A study of Rattus norvegicus with 33 samples.

Results

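The bacterial genus Bacteroides and its species were followed in the cecal contents of 33 rats, the blind sac where the large bowel begins. The members were every row of the deposited bacterial tables whose genus is Bacteroides, which gave 21 of 5543 bacterial species, together with the genus row itself, 1 of 1455 genera. Of the 21, 13 carry a species name and 8 a strain code, and all 21 passed the filter on low values. The rule used the genus name and no measured value, but the genus itself was picked with earlier results of these data known.

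Bacteroides are Gram-negative anaerobes of the order Bacteroidales and a standing part of the mammalian large bowel. They carry many gene clusters for binding, cutting and importing complex carbohydrates, with outer membrane transporters driven by the TonB system, and ferment plant fibre and host mucin sugars to acetate, propionate and succinate. Species differ in the glycans they can use.

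The rats were 14 to 15 weeks old and came from the spontaneously hypertensive strain (SHR), inbred for high blood pressure, and the Wistar Kyoto strain (WKY), the related strain with normal pressure that it is usually compared with. The groups were 10 SHR females, 9 WKY females, 7 SHR males and 7 WKY males, with 1 shotgun DNA library for each rat and no treatment named in the labels. Neither cages nor litters nor batches are labelled. Had rats of a group shared them, the p-values would be too small, and strain or sex could not be told apart from them. All SHR rats are listed before all WKY rats. SHR libraries were the shallower ones, with a median total of 365717 reads in SHR females and 547938 in SHR males against 706634 in WKY females and 688051 in WKY males. The lowest library, that of SHR female 9, held 163140 reads and the highest 886827. Replicate numbers only name rats in order of listing.

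Bacteroides was the most abundant of all genera, at a mean of 7.63% of library reads over the 33 rats. Library reads are the total that the deposited percent values imply. The genus row held between 5365 and 133561 reads per rat. In SHR females it took 3.29% at the lowest, 9.84% at the median and 17.3% at the highest. In WKY females it took 3.89%, 6.17% and 16.4% in the same order. The corresponding values were 3.09%, 5.47% and 13.4% in SHR males and 1.20%, 2.17% and 8.21% in WKY males. The ranges of all 4 groups overlapped, and the WKY males had both the lowest rat and the lowest median.

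**Figure D1:**
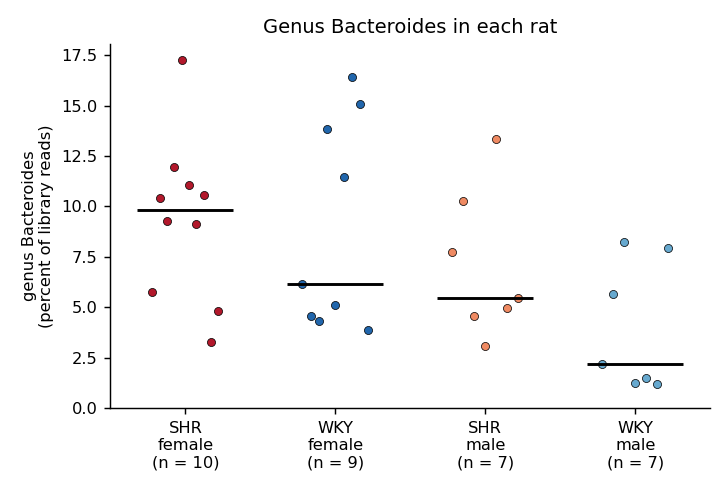
Genus Bacteroides as a percent of library reads (vertical axis) in each rat, by group (horizontal axis); each point is 1 rat and each bar the group's median. The WKY males had the lowest median, 2.17%, and the SHR females the highest, 9.84%, with wide overlap between all groups.

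As a percent of the reads assigned to bacterial genera, Bacteroides averaged 10.8 ± 4.61 (SD, n = 10) in SHR females and 10.2 ± 5.90 (SD, n = 9) in WKY females, a difference of 0.626 percentage points (exact 2-sided permutation test, p = 0.795). In SHR males it averaged 8.15 ± 4.18 (SD, n = 7) and in WKY males 4.57 ± 3.74 (SD, n = 7), a difference of 3.58 points (exact permutation p = 0.118, 0.235 after Benjamini-Hochberg adjustment over the 4 comparisons). SHR females exceeded SHR males by 2.66 points (exact permutation p = 0.243, adjusted 0.324). The gap was widest between WKY females and WKY males, at 5.62 points (exact permutation p = 0.0483, adjusted 0.193). No comparison of the genus percent passed after adjustment.

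On the main scale, log2 of the reads divided by the deposited size factor plus 1, limma called the genus row in 1 of 5 comparisons. WKY females exceeded WKY males by 1.37 ± 0.39 (log2 difference ± SE, adjusted p = 0.0483). As percents of library reads, 9 of 9 females lay above the male median. The share of all 1418 genera called there was 2.4%. The call sat at the threshold. It was absent on the percent scale (1.40, adjusted p = 0.142) and when only the 2 groups entered the fit (adjusted p = 0.150), and it held in 11 of 33 fits that each left out 1 library, with the highest adjusted p, 0.186, without WKY male 4. In SHR the difference between the sexes was 0.43 ± 0.38 (adjusted p = 0.989, background 0%). Between the strains the genus differed by -0.24 ± 0.35 (SHR minus WKY, the sign used throughout and opposite to that of the authors' deposited tables) in females (adjusted p = 0.793, background 0.917%) and by 0.71 ± 0.41 in males (adjusted p = 0.522, background 0%). On the percent scale the value in females turned to 0.14, and on that scale the median over all genera lay at 0.32. The strain differences of the 2 sexes differed from each other by -0.95 ± 0.54 (adjusted p = 0.842, background 0%).

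Most Bacteroides reads could be placed in a species. Between 80.7% and 88.7% of genus reads were named to 1 of the 21 species in each rat, and the rest stayed at the level of the genus. How reads were placed is not stated, and close relatives such as ovatus, xylanisolvens and the strain-coded rows may divide the reads of 1 organism, which was not tested. The 8 most abundant members held 67.9% of genus reads on average. Bacteroides caecimuris, first isolated from the mouse cecum, led with a mean of 25.1% of genus reads, followed by sp. CBA7301 at 10.6%, uniformis at 9.15%, ovatus at 5.33%, fragilis at 5.27%, thetaiotaomicron at 5.13%, caccae at 4.02% and intestinalis at 3.31%. At the other end, the rarest member, 1 of the strain-coded rows, held 0.0592% of genus reads and as few as 1 read in a rat. Bacteroides caecimuris was the most abundant member in 31 of 33 rats. The exceptions were 2 SHR females. In SHR female 3 ovatus took 13.5% of genus reads against 12.5% for caecimuris, and in SHR female 7 thetaiotaomicron took 12.7% against 12.2%.

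**Figure D2:**
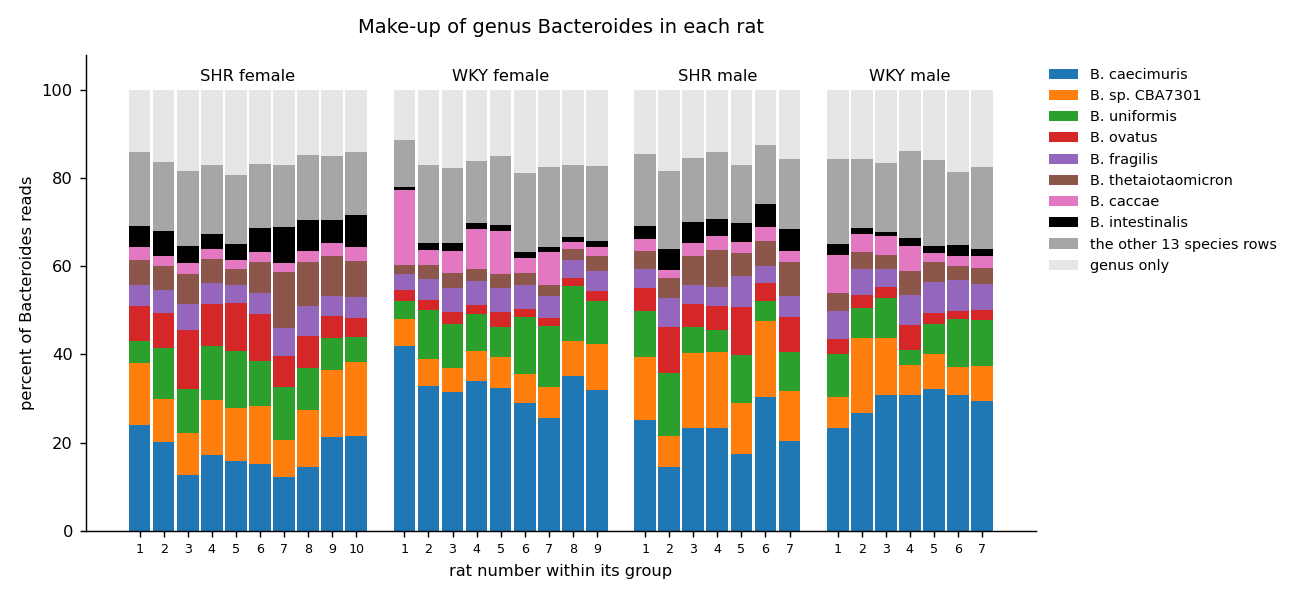
Make-up of the genus in each rat: each bar is 1 rat, ordered by group, and stacks the percent of Bacteroides reads (vertical axis) taken by the 8 most abundant species, the other 13 species rows together and reads named to the genus only. The lowest segment, caecimuris, was larger in each of the 9 WKY females than in any of the 10 SHR females.

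The strains differed in which species made up the genus. Bacteroides caecimuris took 12.2% to 24% of genus reads in SHR females, with a median of 16.5%, and 25.6% to 42.0% in WKY females, with a median of 32.4%. In males the shares were 14.6% to 30.4% in SHR (median 23.3%) and 23.2% to 32.2% in WKY (median 30.7%). The female ranges did not overlap and the male ranges did, although 7 of 7 SHR males lay below the WKY male median.

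Bacteroides intestinalis, a species first grown from human faeces, showed the opposite order. Its share of genus reads was 3.34% to 8.27% in SHR females (median 5.25%) and 0.674% to 1.90% in WKY females (median 1.23%). It was 3.12% to 5.21% in SHR males (median 4.62%) and 0.984% to 2.63% in WKY males (median 1.56%). No WKY rat of either sex reached the lowest SHR rat of its sex, the only member of which this held in both sexes.

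Bacteroides ovatus, a degrader of plant hemicelluloses, took 4.29% to 13.5% of genus reads in SHR females (median 7.84%) and 1.79% to 3.46% in WKY females (median 2.23%), with no overlap. In males the shares were 4.05% to 11% (median 5.47%) and 1.86% to 5.82% (median 2.52%), which overlapped through WKY male 4. Bacteroides thetaiotaomicron, which uses a wide range of plant and mucin glycans, took 3.58% to 12.7% in SHR females (median 6.97%) and 2.10% to 3.38% in WKY females (median 2.74%), again with no overlap. Its male shares were 4.04% to 8.37% (median 5.56%) and 3.04% to 5.38% (median 3.78%), and overlapped.

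Sp. M10 was the remaining member without overlap in females, at 0.641% to 0.992% of genus reads in SHR and 0.386% to 0.624% in WKY. In all, shares of 5 of 21 members did not overlap when SHR and WKY females were compared, 4 higher and 1 lower in SHR, where 0.445% of 3823 species showed no overlap in their share of their own genus. In males 1 of 21 did, against 0.863% of species. Between the sexes no member's ranges were apart in SHR (background 0%) or in WKY (background 0.34%).

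**Figure D3:**
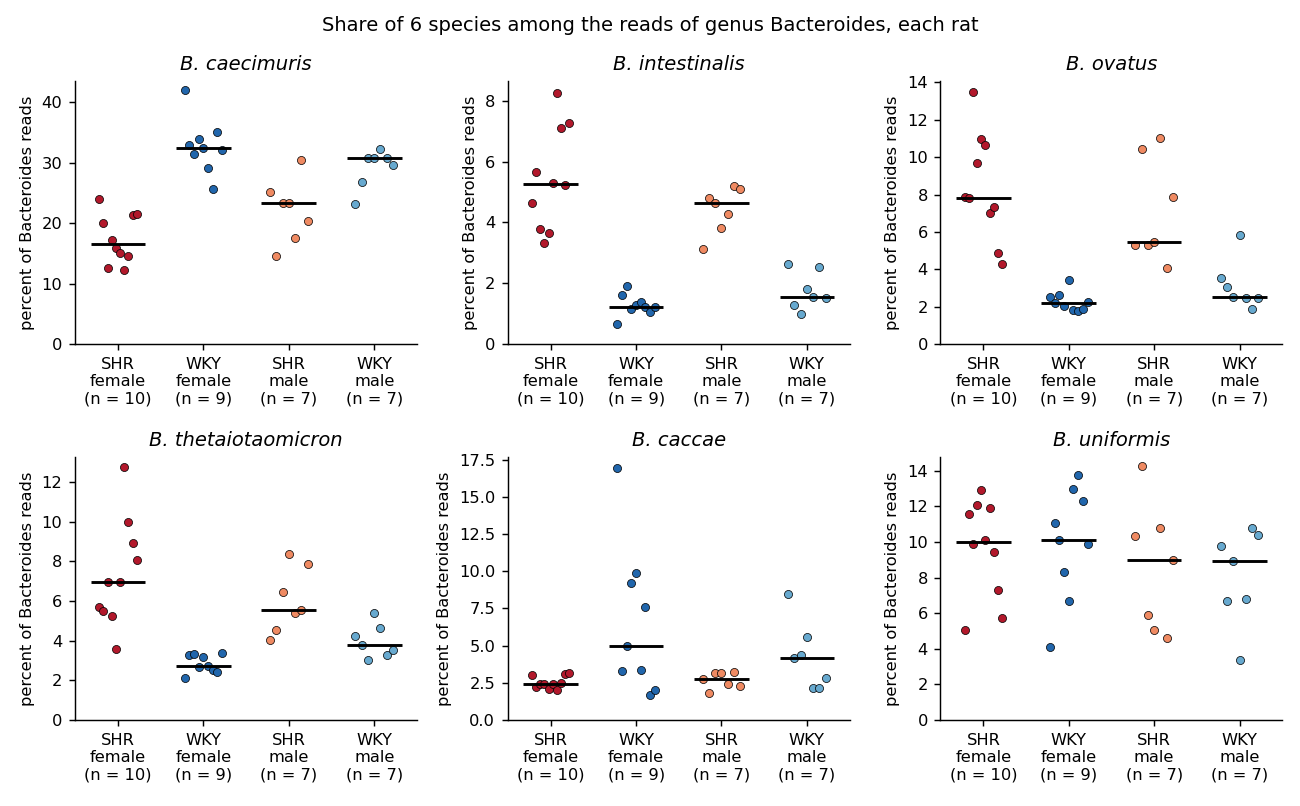
Share of 6 species among the reads of genus Bacteroides (vertical axes, percent, each panel with its own scale from 0) in each rat, by group; points are rats and bars are medians. Shares of intestinalis do not overlap between the strains in either sex, those of caecimuris, ovatus and thetaiotaomicron do not overlap in females, and uniformis overlaps throughout.

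The number of caecimuris reads per intestinalis read, a ratio that needs no total and was chosen after its values were seen, ran from 1.48 to 5.16 in SHR females (median 3.42) and from 16.5 to 62.3 in WKY females (median 24.9). In males it ran from 3.02 to 8.05 in SHR (median 5.03) and from 8.85 to 31.3 in WKY (median 19.3). The highest SHR rat lay below the lowest WKY rat in each sex. In females this was fixed by the share ranges above, which were apart in opposite directions, so it adds no support. In males the caecimuris shares overlapped and those ranges did not fix it. The pair was still picked from these data, and no other pairs of species were set beside it.

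Shares were also tested with limma over the 3823 species of genera with at least 2 tested species, an analysis added after seeing the data. In females 9 of 21 members passed, 8 higher and 1 lower in SHR, against a background of 5.96% of species. The log2 differences were 2.07 ± 0.19 for intestinalis (adjusted p = 3.1e-08), 1.82 ± 0.22 for ovatus (2.13e-06), 1.31 ± 0.18 for thetaiotaomicron (1.26e-05) and -0.93 ± 0.13 for caecimuris (1.22e-05), and these 4 passed in all 33 fits that left out 1 library. The other 5 were sp. CBA7301 (0.81), sp. HF-5141 (0.76), sp. M10 (0.61), xylanisolvens (0.55) and cellulosilyticus (0.36). Of these 5, cellulosilyticus passed in 24 of 33 such fits and the rest in all 33. In males 3 members passed, against a background of 2.2%: intestinalis rose by 1.38 ± 0.22 (adjusted p = 0.000255), ovatus rose by 1.19 ± 0.25 (adjusted p = 0.00836) and zoogleoformans fell by 0.81 ± 0.22 (adjusted p = 0.0424, 24 of 33 fits).

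Shares of 1 genus add to a fixed total, so lower shares of some members go with higher shares of others, in either direction. Only caecimuris, the largest member, was taken out of that total, and which members moved was not tested. With the reads of caecimuris taken out of the genus total, the rise in females held for intestinalis (1.77 ± 0.18, adjusted p = 2.07e-07), ovatus (1.53 ± 0.21, adjusted p = 1.46e-05) and thetaiotaomicron (1.01 ± 0.17, adjusted p = 0.000468). The 5 smaller rises no longer passed. Instead 4 members were lower in SHR females, namely caccae (-1.32 ± 0.33), zoogleoformans (-0.90 ± 0.19), heparinolyticus (-0.66 ± 0.11) and helcogenes (-0.66 ± 0.11), so that 7 of 20 members passed against a background of 5.91%. In males 6 of 20 passed against 2.28%. Intestinalis (1.25 ± 0.21) and ovatus (1.05 ± 0.24) were higher, and zoogleoformans (-0.95 ± 0.22), heparinolyticus (-0.62 ± 0.13), helcogenes (-0.61 ± 0.13) and fragilis (-0.45 ± 0.11) were lower in SHR. The shares left still add to a fixed total, so higher shares of some members lower those of others. Over the 20 members the median was -0.27 in females and -0.24 in males, against 0.02 over all species in each sex. None of the lower members was called as a level between the strains by limma on the main scale. Zoogleoformans and heparinolyticus are known as oral species and helcogenes from abscesses of pigs.

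The levels of the members, as against their shares, depend on how libraries are scaled. On the size-factor scale, limma called 5 of 21 members when SHR females were set against WKY females, with 3 higher and 2 lower, against 2.33% of 4641 species (29 higher and 79 lower). The median log2 difference was -0.27 over the members and -0.07 over all species. In males 1 of 21 was called against 0.539% of species, with a median of 0.55 over the members and -0.02 over all species. Below, counts of rats above or below a WKY median beside these differences were made on percents of library reads, not on the size-factor scale.

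Bacteroides intestinalis took 0.172% of library reads at the lowest, 0.492% at the median and 0.753% at the highest in SHR females, and 0.0416%, 0.0817% and 0.200% in WKY females. In males it took 0.118%, 0.258% and 0.570% in SHR and 0.0228%, 0.0570% and 0.121% in WKY. The ranges overlapped in females only through the lowest SHR rat, number 9, the shallowest library, and in males through SHR male 4. The log2 difference was 1.83 ± 0.32 in females (limma, adjusted p = 0.00118, 10 of 10 above the WKY median) and 2.09 ± 0.38 in males (adjusted p = 0.00273, 7 of 7). Both calls held in all 33 fits without 1 library and in all 10 other settings. The authors' deposited table lists it at -1.77 in females (adjusted p = 3.47e-05) and -2.16 in males (adjusted p = 0.000144).

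Bacteroides ovatus took 0.161% to 1.90% of library reads in SHR females (median 0.795%) and 0.0879% to 0.294% in WKY females (median 0.177%). Its ranges overlapped, with SHR females 9 and 10 inside the WKY range. It was higher by 1.59 ± 0.44 in SHR females (limma, adjusted p = 0.0454, 9 of 10 above the WKY median), and this held in 13 of 33 fits without 1 library (highest adjusted p 0.0945, without WKY female 2) and in all 10 other settings. In males the percents were 0.169% to 1.47% (median 0.411%) and 0.0224% to 0.207% (median 0.0764%), and the difference of 1.89 ± 0.51 did not pass (adjusted p = 0.0751), although 7 of 7 SHR males lay above the WKY median. It passed on the percent scale (2.30, adjusted p = 0.0168), with the filter in all samples (adjusted p = 0.0489), by edgeR (2.22, adjusted p = 0.0142), by DESeq2 (2.21, adjusted p = 0.000855) and without the 3 shallowest libraries (2.12, adjusted p = 0.00444). The authors' deposited table lists ovatus at -1.86 in females and -2.21 in males.

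Bacteroides thetaiotaomicron took 0.294% to 1.16% of library reads in SHR females (median 0.622%) and 0.130% to 0.413% in WKY females (median 0.161%). The difference was 1.07 ± 0.30 (limma, adjusted p = 0.0440, 10 of 10 above the WKY median), and it held in 20 of 33 fits without 1 library, with the highest adjusted p, 0.0839, without WKY female 5. It held in 9 of 10 other settings and was lost with only the groups compared (adjusted p = 0.0519). In males it took 0.259% to 0.717% (median 0.313%) against 0.0392% to 0.280% (median 0.0919%), a difference of 1.29 ± 0.34 that did not pass (adjusted p = 0.0640). It passed on the percent scale (1.69, adjusted p = 0.00607), by DESeq2 (1.26, adjusted p = 0.0218) and without the 3 shallowest libraries (1.38, adjusted p = 0.0432). Levels overlapped between the strains in both sexes. The authors' deposited tables for females and for males do not list thetaiotaomicron. Their general model does, at -1.93 (authors' adjusted p = 5.08e-05). What that model compares was not established. It also gives caecimuris an adjusted p of 0.00169 at a fold change of only -0.22 ± 0.38 (SE).

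Both members called lower in SHR females lost the call on the percent scale. Bacteroides caecimuris took 0.702% to 2.74% of library reads in SHR females (median 1.46%) and 1.24% to 5.28% in WKY females (median 2.59%), a log2 difference of -1.17 ± 0.33 (limma, adjusted p = 0.0449, 9 of 10 below the WKY median). On the percent scale it was -0.79 (adjusted p = 0.144), and the call held in 17 of 33 fits without 1 library, with the highest adjusted p, 0.107, without WKY female 8. It held in 7 of 10 other settings, the other losses being pseudocount 10 (adjusted p = 0.0527) and the fit without the 3 shallowest libraries, all from SHR rats (-0.97, adjusted p = 0.0858). In males the log2 difference was 0.28 ± 0.38 (limma, adjusted p = 0.818), with medians of 1.5% of library reads in SHR and 0.504% in WKY. As percents of library reads 7 of 7 SHR males lay above the WKY median, and as shares of the genus 7 of 7 lay below it. The interaction of strain and sex, -1.45 ± 0.50, did not pass (adjusted p = 0.609). Bacteroides coprosuis, first isolated from pig manure and present at 29 to 228 reads per rat, had medians of 0.0187% in SHR females and 0.0257% in WKY females and a difference of -0.66 ± 0.19 (adjusted p = 0.0474). That difference was -0.29 on the percent scale (adjusted p = 0.407), and it passed in 9 of 33 fits without 1 library, with the highest adjusted p, 0.101, without WKY female 7. It passed in 6 of 10 other settings and was also lost with TMM scaling, with pseudocount 0.5 and with only the groups compared. The authors' deposited table for females, with its opposite sign, lists caecimuris at 1.24 (adjusted p = 0.00781) and coprosuis at 0.69 (adjusted p = 0.00515).

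**Figure D4:**
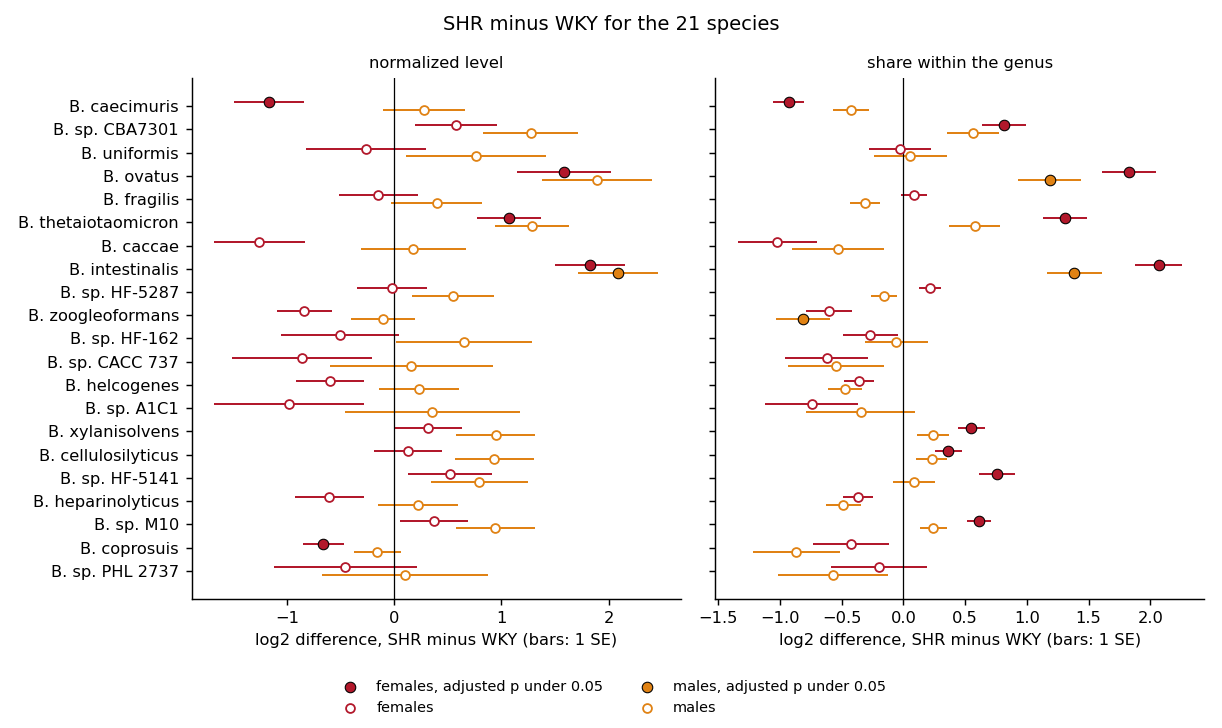
SHR minus WKY for the 21 species, ordered by abundance: log2 difference with 1 SE (horizontal axes) in females and males, on the size-factor scale (left) and as the share within the genus (right, added after seeing the data); filled points have an adjusted p under 0.05. Intestinalis, ovatus and thetaiotaomicron lie right of 0 in both sexes and both panels; caecimuris lies left of 0 in females in both panels and in males only as a share.

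Bacteroides caccae, a user of mucin sugars, spread widely among WKY females. Its share of genus reads ran from 1.69% to 16.9% in WKY females (median 4.99%), with the highest value in WKY female 1, and from 1.98% to 3.18% in SHR females (median 2.42%). Male shares were 1.80% to 3.23% in SHR (median 2.72%) and 2.15% to 8.49% in WKY (median 4.14%). All 10 SHR females lay below the WKY female median. The level differed by -1.26 ± 0.42 in females (limma, adjusted p = 0.103) and by 0.18 ± 0.49 in males (adjusted p = 0.922). In females edgeR (-1.69, adjusted p = 0.0139) and DESeq2 (-1.66, adjusted p = 0.00237) called it, as did the authors' deposited table, which gives 1.68 with its opposite sign.

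Among the other abundant members, sp. CBA7301 took 0.499% to 2.05% of library reads in SHR females (median 0.961%) and 0.236% to 1.22% in WKY females (median 0.40%), a difference of 0.57 ± 0.38 (limma, adjusted p = 0.460). In males its medians were 0.772% and 0.153%, and the difference of 1.27 ± 0.44 passed only on the percent scale (1.68, adjusted p = 0.0390; adjusted p = 0.168 on the main scale). Bacteroides uniformis, a common gut species, had shares of the genus with close medians in the 4 groups, 9.99% in SHR females, 10.1% in WKY females, 8.97% in SHR males and 8.93% in WKY males. Its rats spread widely, from 3.35% to 14.2%, and its level differed by -0.27 ± 0.56 in females (adjusted p = 0.846) and 0.76 ± 0.66 in males (adjusted p = 0.664). Bacteroides fragilis, known for its capsular polysaccharides, had shares between 3.66% and 7.03% in all rats, with medians of 4.83%, 5.0%, 4.38% and 6.23% in the same order of groups. Its level differed by -0.15 ± 0.37 in females (adjusted p = 0.871) and 0.39 ± 0.43 in males (adjusted p = 0.758).

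The remaining 12 members were not called between the strains on the main scale. Of these, zoogleoformans was called lower in SHR females by edgeR (-0.88, adjusted p = 0.0481) and DESeq2 (-0.86, adjusted p = 0.0247), against -0.84 in limma (adjusted p = 0.0715). On the percent scale 3 of 21 members were called in females against 7.48% of species and 6 of 21 in males against 3.73%, all higher in SHR (in males intestinalis, ovatus, thetaiotaomicron, sp. CBA7301, sp. M10 and xylanisolvens), but that scale also moved the median over all species to 0.29 in females and 0.36 in males, and turned the split of called species in females to 329 higher and 18 lower. In females and males 10 of 21 members had a level difference of the same sign, against 62.1% of all species. As shares within the genus, 18 of 21 did, 8 positive and 10 negative in both, against 62.3% of all species. No rats are common to these 2 comparisons. Within each sex the same rats enter for every member and the shares add to a fixed total, so these signs are not 21 observations.

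Few differences between the sexes passed after adjustment. In WKY all 21 members had a positive difference of female minus male, with a median of 1.08 over the members and 0.00 over all species. An unadjusted limma p under 0.05 was found for 20 of 21 members, against 651 of 4641 species. The same rats enter for every member, so these are not 20 observations. After adjustment 1 of 21 was called against 0.711% of species. That member was caecimuris, at 1.54 ± 0.36 (limma, adjusted p = 0.0480), with medians of 2.59% of library reads in females and 0.504% in males and 9 of 9 females above the male median. It passed in 11 of 33 fits without 1 library, and the highest adjusted p, 0.117, came without WKY male 4. It passed in 7 of 10 other settings and was lost on the percent scale (1.56, adjusted p = 0.101), without a filter (adjusted p = 0.0502) and with only the groups compared (adjusted p = 0.159). Caccae (1.79 ± 0.46, adjusted p = 0.0549) came next and was called by edgeR (2.02, adjusted p = 0.0214), by DESeq2 (2.01, adjusted p = 0.00139) and in 4 other settings.

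In SHR all 21 differences were positive as well, with a median of 0.45 over the members and -0.04 over all species. Limma called 0 of 21 members, as did edgeR and DESeq2, 1 had an unadjusted p under 0.05, and the background was 0%. The same rats enter the comparison for every member, so 21 equal signs are not 21 observations. The interaction of strain and sex (SHR minus WKY in females less the same in males) was negative for all 21 members, with 0 called by limma, edgeR or DESeq2, 2 with an unadjusted p under 0.05, and a background of 0.0215%.

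As shares of the genus, 0 of 21 members were called between the sexes by limma in SHR (1 with an unadjusted p under 0.05, background 0%) or in WKY (9 with an unadjusted p under 0.05, background 0.419%), and 0 in the test of strain by sex (7 with an unadjusted p under 0.05, background 0.0262%). The median share difference between WKY females and males was -0.30, with 6 members positive and 15 negative.

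**Figure D5:**
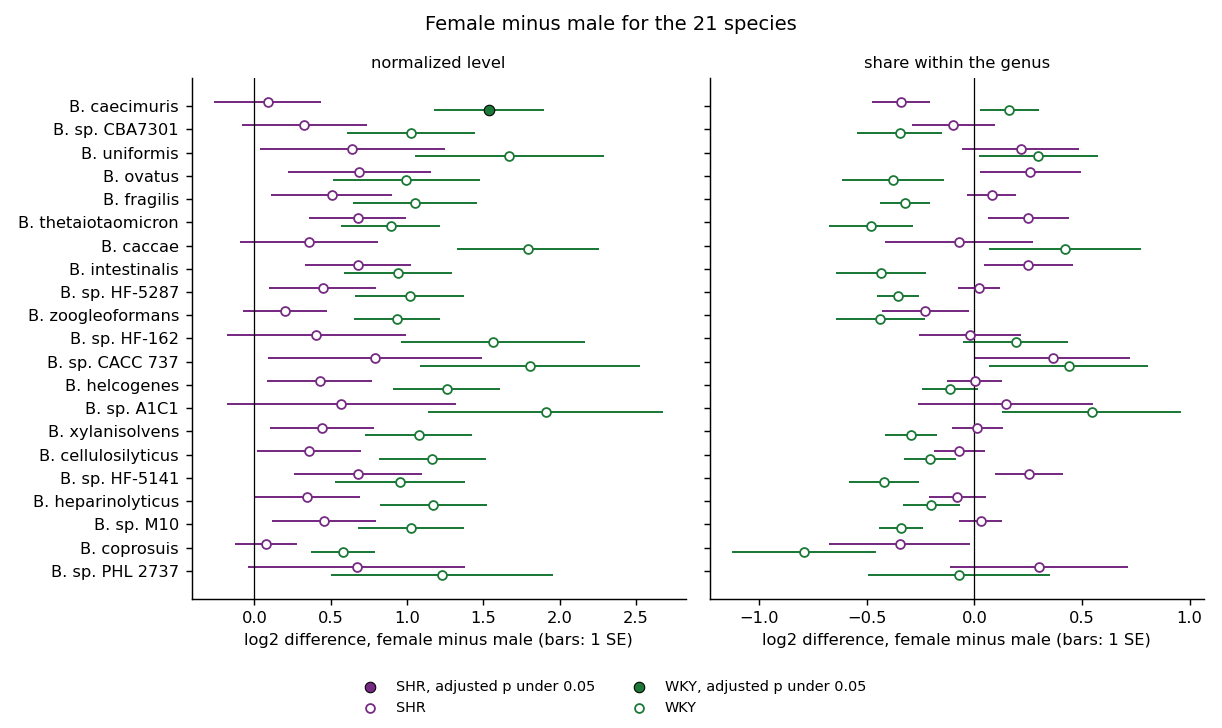
Female minus male for the 21 species, ordered by abundance: log2 difference with 1 SE (horizontal axes) in SHR and WKY, on the size-factor scale (left) and as the share within the genus (right); filled points have an adjusted p under 0.05. All points of the left panel lie right of 0 and 1, caecimuris in WKY, is filled; the right panel has points on both sides of 0 and none filled.

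Related genera of the order Bacteroidales were read from a list of 33, of which 19 were in the table. In WKY 6 of 19 were higher in females than in males (limma, adjusted p under 0.05; background as given for the genus, 2.4%) and all 19 differences were positive, with a median of 0.88. Without adjustment 15 of 19 had a limma p under 0.05, against 192 of 1418 genera. The 6 were Petrimonas (1.04 ± 0.26), Paludibacter (0.97 ± 0.23), Duncaniella (0.94 ± 0.27), Barnesiella (0.89 ± 0.25), Porphyromonas (0.86 ± 0.23) and Tannerella (0.86 ± 0.23), and on the percent scale 0 of 19 passed. Among the Bacteroidales reads of each rat, Bacteroides took 27.9% to 47.4% in WKY females (median 33.4%) and 19.5% to 42.3% in WKY males (median 25.9%). In SHR it took medians of 31.6% in females and 31.3% in males.

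Between the strains limma called 0 of the 19 relatives in females and 0 in males, with 3 and 2 at an unadjusted p under 0.05. EdgeR called 1 and 1, and DESeq2 2 and 1. Parabacteroides, a close relative of Bacteroides, was higher in SHR by 1.91 ± 0.50 in females (adjusted p = 0.0521) and 2.43 ± 0.58 in males (adjusted p = 0.0665). On the percent scale it was called in both sexes, 1 of 19 in females against 10.9% of genera and, with Draconibacterium, 2 of 19 in males against 5.29%. Its median share of library reads was 2.68% in SHR females, 0.380% in WKY females, 1.07% in SHR males and 0.216% in WKY males. The other most abundant relatives, Muribaculum, Duncaniella, Alistipes and Phocaeicola, were not called between the strains, with log2 differences of -0.30, -0.28, -0.49 and 0.36 in females and 0.22, 0.33, -0.17 and 0.51 in males. In SHR 0 of 19 were called between the sexes by limma, edgeR or DESeq2, and 0 had an unadjusted p under 0.05 in limma.

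Among the 1057 functional subsystems, 3 had names tied to Bacteroides or its transporters, and limma called none of them in the 4 comparisons (0 of 3 each, with 0, 0, 0 and 3 at an unadjusted p under 0.05; no other tool was run on functions). Backgrounds were 8.42% for the female strain comparison, 2.46% for the male one, 0% for SHR females against males and 0.662% for WKY females against males. The Ton and Tol transport systems, which energise uptake across the outer membrane, held 1533 to 7621 normalized reads in SHR females (median 5967) and 2128 to 11262 in WKY females (median 3170.0). The medians and the tested difference had opposite order, since the fitted log2 difference of SHR minus WKY females was -0.03 ± 0.43 (adjusted p = 1). In males the medians were 2665 in SHR and 1548 in WKY, a difference of 0.53 ± 0.50 (adjusted p = 0.592).

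The subsystem of conjugative transposons of Bacteroidales, mobile elements, differed by -0.38 ± 0.30 between SHR and WKY females (adjusted p = 0.480) and by 0.48 ± 0.35 between males (adjusted p = 0.457). In WKY it exceeded the male level in females by 1.04 ± 0.33 (adjusted p = 0.0834). Regulators of Bacteroides capsular polysaccharides were rare, with 12.3 to 54.9 normalized reads in SHR females (median 33.8) and 9.12 to 62.7 in WKY females (median 19.6). Their means were close, at 34.1 ± 14.9 (SD, n = 10) and 33.6 ± 20.4 (SD, n = 9), and the log2 difference was 0.13 ± 0.38 (adjusted p = 0.899). In males it was 0.87 ± 0.45 (adjusted p = 0.285).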

How the data were processed

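DNA of cecal contents was extracted with a PowerSoil kit and made into Nextera libraries, per the labels' protocols. FastQC 0.11.5, cutadapt 2.6, Trimmomatic 0.36 and DESeq2 are named in the submitters' processing notes; neither the classifier nor its database is named in the sources used here. The authors deposited percent values of reads per taxon, a normalized signal (read count divided by a size factor) for taxa and functions, and log2 fold changes with p-values and adjusted p-values of their own models, whose further deposited columns are other quantities. Both kinds of table gave whole reads for 100% of values (tolerance 0.01 read). The percents were of a library total, not of bacterial reads as the planned wording had it, so the genus percent of bacterial reads was computed from the recovered reads, and the percent scale of the other tests uses the library total. Names in the authors' model tables did not belong to the taxon ID on the same row (matching in 2 of 187, 2 of 33 and 1 of 383 rows of the female, male and general models that could be checked), while the mean of the general model matched the ID in 383 of 383, so values were looked up by ID.

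The main test was limma 3.58.1 (R 4.3.3; trend, robust) on log2(normalized value + 1) over 4641 of 5999 bacterial species and 1418 of 1455 genera with a normalized value of 10 in at least 7 samples, and over 1057 functions, in 1 fit of 4 group means on 33 rats. Such a fold change understates the change of low taxa. Tests were 2-sided, and features with an adjusted p (Benjamini-Hochberg, whole table) under 0.05 were called. Alternatives used edgeR 4.0.16 and DESeq2 1.42.0 on recovered reads, other scalings, pseudocounts and filters, and fits without libraries. Shares within the genus were tested on log2((reads + 0.5)/(genus reads + 1)). Described in full are the genus row, members called in any comparison of the main fit and the 8 most abundant members; related genera are named where called or among the 5 most abundant. Members, lists and this rule were chosen with earlier results of these data known.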

Additional observations from a re-analysis of the deposited data

How the results depend on the processing

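The calls for intestinalis in females and males held in all 33 fits without 1 library and in the 10 other settings, and no species called in the main analysis changed sign in these. Of 21 members, the number called in females was 5, 3 on the percent scale, 3 with only the groups compared, 7 with edgeR or DESeq2 (which add caccae and zoogleoformans), 4 or 5 in the remaining settings, 9 as shares within the genus and 1 to 5 without 1 library (1 in 6 such fits, among them that without SHR female 2). In males it was 1, 6 on the percent scale, 2 with the filter in all samples, 2 with edgeR, 3 with DESeq2, 3 without the 3 shallowest libraries, 3 as shares and 1 to 3 without 1 library (3 without SHR female 9). Between the sexes of WKY it was 1, then 0 on the percent scale, without a filter, with only the groups compared and as shares, 2 with TMM scaling, pseudocount 10 or the filter in all samples, 3 with edgeR or without the 3 shallowest libraries, 6 with DESeq2 and 0 to 6 without 1 library (6 without WKY male 7). The genus row of WKY females over males kept 1.15 to 1.55 without 1 library and passed in 6 of 10 other settings; it did not pass on the percent scale (1.40), with TMM scaling (1.35), with edgeR (1.32) or with only the groups compared (1.37). The genus difference of the strains in females, -0.24, turned to 0.14 on the percent scale and 0.041 without the 3 shallowest libraries. As a percent of the reads of Bacteroides and its relatives, the strain difference in females turned to -2.52 and the sex difference in SHR to -0.17 points, neither with an adjusted p under 0.05. Of the 19 related genera, 0 passed in females, against 1 on the percent scale, with TMM scaling, with the filter in all samples, with edgeR, with only the groups compared or without the 3 shallowest libraries, 2 with DESeq2, and 0 to 1 without 1 library. In males 0 became 2 on the percent scale, 1 with edgeR, DESeq2 or without the 3 shallowest libraries, and 0 to 1 without 1 library. In WKY females over males 6 became 0 on the percent scale or with only the groups compared, 9 with DESeq2, 4 with edgeR or TMM scaling, 5 with pseudocount 10, and 0 to 10 without 1 library (10 without WKY male 7). The causes were not tested. The shares that did not overlap numbered the same, 5, 1, 0 and 0, with the sum of the species rows as the total. In the share fit 8 to 12 members passed in females and 2 to 5 in males without 1 library, and 10 and 3 without the 3 shallowest libraries. No paired analysis was made, since the groups hold separate rats and the labels link no rat of 1 group to a rat of another. Depth limits the 2 rarest members, coprosuis and a strain-coded row with as few as 1 read.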
